A study of Mus musculus with 10 samples.

Results

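The 8 genes described here encode protein arginine methyltransferases: Prmt1, Prmt2, Prmt3, Carm1, Prmt5, Prmt6, Prmt7 and Prmt9. They were taken by name, and every feature that the mm10 annotation places at one of them was kept. A feature is the 3′ untranslated region (3′UTR) of a UCSC transcript with 2000 bases added downstream, and features with the same coordinates were summed into 1 site. This gave 25 features at 14 sites, of 43031 features at 28730 sites of 19467 named genes in the whole series. Levels are in TPM, a value scaled for feature length and library size. That length includes the added bases, so levels set side by side between genes compare sites and not amounts of mRNA.

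RNA-seq was made from mouse embryonic stem cells (ESC) of strain C57BL/6 in 3 groups: wild type (WT), DIDO3ΔE16, which lacks exon 16 of Dido1, the exon specific to the DIDO3 isoform, through a floxed allele and Sox2-Cre, and DIDO3ΔCT+HADIDO3, a constitutive C-terminal deletion that hits the same exon and was reconstituted with HA-tagged DIDO3. All cells were grown with LIF on mitomycin C-treated embryonic fibroblasts or on gelatin, and which library had which support is not given in the sources used here. WT replicates 2 and 3 carry 1 library number and 1 file and were used as 1 library (WT 2-3), which leaves 3 libraries in each group. Nothing in the labels says that they came from separate cultures or how many ESC lines each group holds, and the reconstituted cells differ from DIDO3ΔE16 in allele as well as in the added DIDO3, so these causes cannot be told apart.

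Arginine methyltransferases move methyl groups from S-adenosylmethionine to arginine side chains of histones, splicing factors and many RNA-binding proteins. Type I enzymes leave asymmetric dimethylarginine, type II enzymes symmetric dimethylarginine, and type III enzymes monomethylarginine only. PRMT5 with its partner WDR77 is known for its need in pluripotent cells and for methylating Sm proteins of the spliceosome, and CARM1 for methylating histone H3 and for its part in the choice of cell fate in the early mouse embryo.

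The 3′ ends at which these sites are anchored are shown for 4 members, because what each site measures depends on where this end lies. Each line holds the last 30 bases of the GENCODE vM21 transcript whose end lies nearest to that of the member's last site, 5′ to 3′ on the gene's own strand, with the polyadenylation hexamer in capitals where the script found one of AATAAA or ATTAAA.
Carm1 (chr9:21589438-21589467, mm10, + strand): gaaAATAAAagtgtttgctttgtaagaaaa
Prmt2 (chr10:76207227-76207256, mm10, - strand): catgctcAATAAAtattttttaacgaacaa
Prmt3 (chr7:49858236-49858265, mm10, + strand): aaatatgcaactattgaaagcttctgcatc
Prmt5 (chr14:54507187-54507216, mm10, - strand): AATAAAgtgaagttacggcctctgctgctt
The hexamer AATAAA began 27 bases from the end in Carm1, 23 in Prmt2 and 30 in Prmt5, and neither hexamer is in the last 30 bases shown for Prmt3. Of 47712 protein-coding transcripts with a complete end, 43.5% hold AATAAA and 53.9% hold either hexamer in this window, searched on the transcript's strand only. The 3′ end in the file lay 0 to 5 bases from the end of the transcript shown for these 4 genes, which was picked as the nearest. For Carm1, the most distal protein-coding end in GENCODE lay 3158 bases from the 3′ end in the file. For Prmt7, the 3′ end in the file of the last site, before the added bases, lay 1100 bases before the GENCODE end.

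The sites do not all measure the same part of their gene. The Carm1 site (uc009olu.2, 3277 bases, 21588189 to 21591465 on chromosome 9) holds 1277 bases of 3′UTR, whereas the Prmt1 site (uc009gsf.2, 2145 bases, 44974755 to 44976899 on chromosome 7) holds 145, followed by 766 bases that GENCODE lists as Prmt1 exon. The most abundant Prmt2 site (uc011xgy.3, 76207338 to 76209339 on chromosome 10) holds 2 bases of 3′UTR, and 1154 of its added bases are exons of longer Prmt2 transcripts. Likewise the added bases hold own exons at the internal sites Prmt3 uc009hbs.1 (1611 bases), Prmt7 uc009nft.1 (414 bases) and Prmt9 uc009mhp.1 (297 bases). Signal in these sites may therefore come from full-length mRNA and from transcripts that end there, and the files do not separate them.

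**Figure D1:**
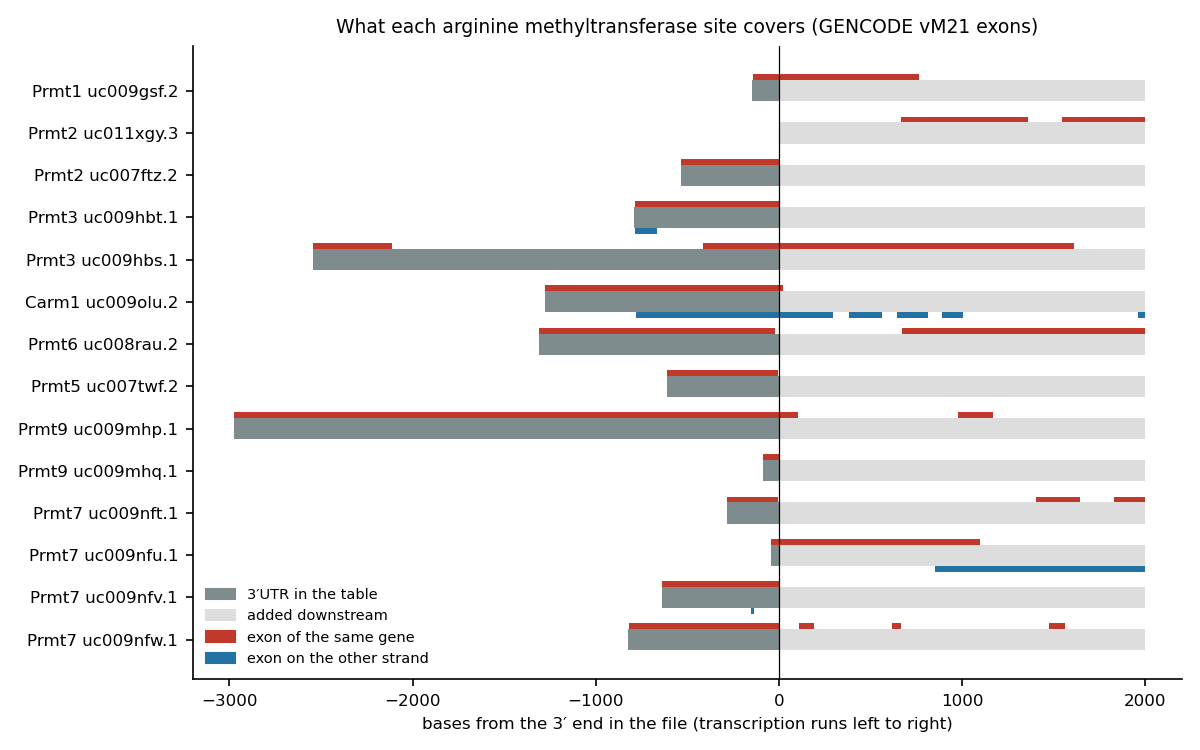
Each bar is 1 of the 14 sites, drawn in bases from the 3′ end in the file, with the 3′UTR in dark grey, the 2000 added bases in light grey, exons of the same gene in red above and exons on the other strand in blue below. Carm1 uc009olu.2 and Prmt7 uc009nfu.1 have long stretches of exon on the other strand, and the added part of Prmt2 uc011xgy.3 holds exons of its own gene.

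Of the 14 sites, 13 were above 0 in all 9 libraries and were tested. The remaining one, the last Prmt7 site (uc009nfu.1, 106251650 to 106253694 on chromosome 8), is listed at 0 in every library. All 2045 of its bases lie inside a Smpd3 site on the other strand, which ranged from 0.186 to 58.9 TPM. A value at such a pair cannot be assigned to 1 strand, since the deposited StringTie command line has no strand option.

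Libraries of the same group differed at some sites in a way that bears on what can be read from single sites. Of 17959 sites above 0 in all libraries with a mean of at least 1 TPM, 10.6% differed by over 10-fold between libraries of 1 group, among them the ESC marker Nanog, at 664 and 676 TPM in WT 1 and WT 2-3 and 3.10 TPM in WT 4. None of the 13 tested member sites did, and the widest spread within a group was 1.5-fold (Prmt7 uc009nft.1 in DIDO3ΔE16). The features of a library held 1.46 to 2.62 Gb of aligned bases, so that 1 TPM stands for 0.434 to 0.775-fold mean coverage. WT 1 and WT 4 were sequenced on flow cells with names beginning C7A9, and WT 2-3 and all mutant libraries on C79M flow cells. Comparisons with WT were therefore also fitted with this name as a covariate. Those values are given where they bear on a member or change a call. No mutant library carries a C7A9 name, so the fold change of this fit sets a mutant line against WT 2-3 alone. WT 1 and WT 4 then add to the estimate of spread but not to the WT level, which rests on 1 library.

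The genotype was read at the 3 sites of Dido1, none of which is a full measure of a single isoform. The most distal site (uc008ojq.2) was at 17.9, 16.8 and 13.7 TPM in WT, 0.546, 0.511 and 0.307 TPM in DIDO3ΔE16, and 12.1, 11.5 and 10.9 TPM in DIDO3ΔCT+HADIDO3. All 3 libraries labelled as exon 16 mutant were low at this site. At uc008oju.2 they held 6.16 to 7.047 TPM, compared with 48.48 to 51.64 TPM in WT and 43.76 to 46.59 TPM in DIDO3ΔCT+HADIDO3. At uc008ojr.2 they were higher, at 81.65 to 96.08 TPM, compared with 4.775 to 4.903 TPM in WT and 7.302 to 8.649 TPM in DIDO3ΔCT+HADIDO3.

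All 6 ESC markers examined (Pou5f1, Nanog, Sox2, Klf4, Esrrb and Zfp42) were at 3.10 TPM or more in every library. Esrrb, like Nanog, differed widely within groups, at 5.18, 1155 and 8.78 TPM in WT and 1903, 9.70 and 1684 TPM in DIDO3ΔCT+HADIDO3. Of 7 fibroblast markers, 5 stayed below 1 TPM in DIDO3ΔCT+HADIDO3, compared with 2 in WT and 1 in DIDO3ΔE16, and their summed level was 49.6 to 56.0 TPM in WT, 53.5 to 57.3 TPM in DIDO3ΔCT+HADIDO3 and 104 to 108 TPM in DIDO3ΔE16. The sum hides opposite orders. Col1a1, a fibrillar collagen gene, was at 10.2 to 13.4 TPM in WT, 28.0 to 29.9 TPM in DIDO3ΔE16 and 0.957 to 1.51 TPM in DIDO3ΔCT+HADIDO3. Thy1 was at 18.1 to 19.7, 29.6 to 33.9 and 52.2 to 56.1 TPM in the same order. Collagen markers thus move with the groups, their part in the results below was not tested, and fewer cells of a type cannot be told apart from less RNA per cell.

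In WT, the most abundant site of each gene placed Prmt5 first (233 ± 9.13 TPM, SD, n = 3), then Prmt7 (151 ± 9.71), Prmt3 (128 ± 2.96), Carm1 (50.4 ± 5.71), Prmt6 (42.7 ± 0.598), Prmt2 (23.8 ± 1.51), Prmt1 (16.8 ± 1.03) and Prmt9 (14.9 ± 0.799). Neighbours in this order did not overlap between libraries except Prmt1 and Prmt9, and the order is of sites, not of mRNAs. The Prmt1 site, which is 6.76% 3′UTR, stands low in it although Prmt1 encodes the enzyme known for most asymmetric dimethylarginine in mammalian cells. In DIDO3ΔE16, Carm1 moved from the fourth to the second place and Prmt7 from the second to the fourth. In DIDO3ΔCT+HADIDO3, only Prmt1 and Prmt2 exchanged places.

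**Figure D2:**
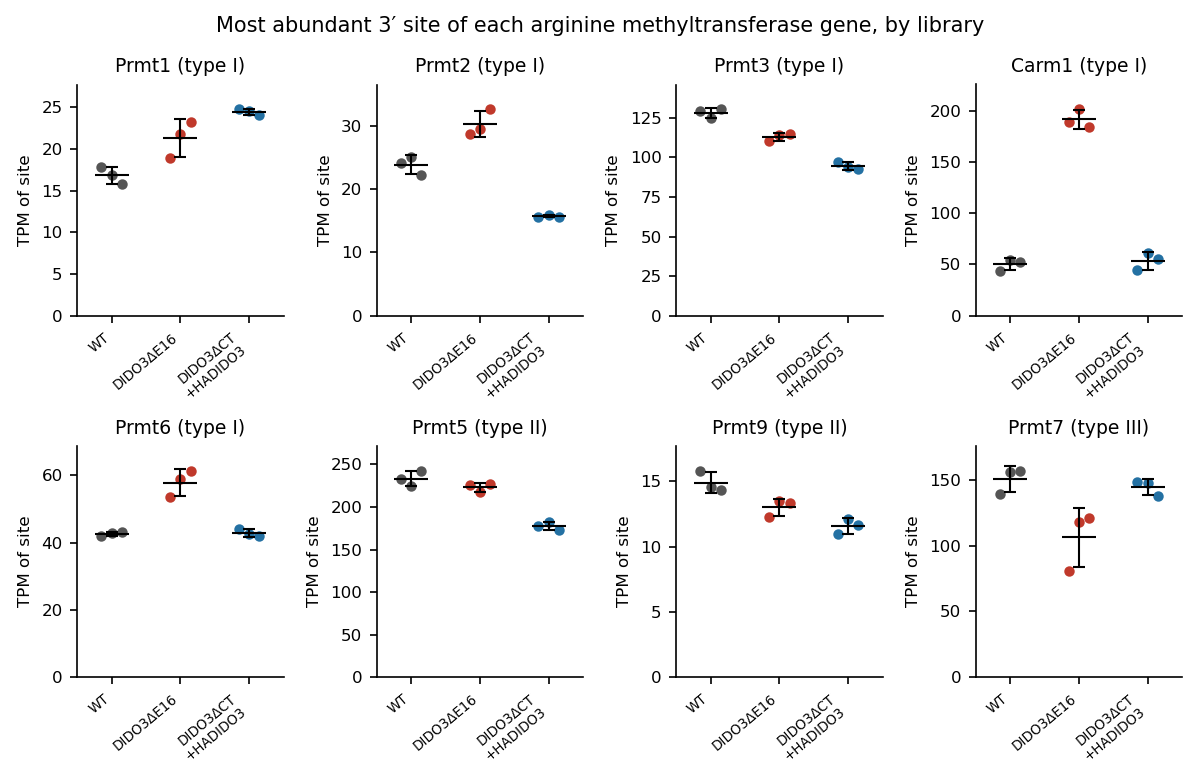
TPM of the most abundant site of each gene (vertical axes, from 0) in the 3 libraries of each group, with mean and SD as black bars. Carm1 lies above 180 TPM in all DIDO3ΔE16 libraries and below 62 TPM in all others, whereas Prmt3 and Prmt5 are lowest in DIDO3ΔCT+HADIDO3.

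The groups were compared in pairs with limma, each time over all sites above 0 in the libraries compared, with p-values adjusted by the Benjamini-Hochberg method over all of these sites. A site is termed altered if its adjusted p was under 0.05 and its log2 fold change reached 0.7 in either direction, the fold limit. Between DIDO3ΔE16 and WT, 2 of 13 member sites were altered (Carm1, higher, and Prmt7 uc009nfv.1, lower), where 15.1% of all 21063 tested sites were. Between DIDO3ΔCT+HADIDO3 and WT, 1 of 13 was altered (Prmt3 uc009hbs.1, lower), beside 17.3% of 20879 sites. Between the mutant lines, 3 of 13 were altered (Carm1 and Prmt2 uc011xgy.3, higher in DIDO3ΔE16, and Prmt7 uc009nfv.1, lower), beside 27.4% of 21172 sites. These shares are close to the background or below it, so the family as a whole did not stand apart by its number of altered sites.

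An adjusted p under 0.05 at any fold was reached by 8 of 13 member sites (61.5%) between DIDO3ΔE16 and WT, beside 33.2% of all sites, by 6 of 13 (46.2%) between DIDO3ΔCT+HADIDO3 and WT, beside 38.4%, and by 9 of 13 (69.2%) between the lines, beside 49.2%. These sites include the altered ones, and whether the family differs from other genes in this share was not tested. With the flow cell name as a covariate, 2 of 13 member sites (15.4%) kept an adjusted p under 0.05 between DIDO3ΔE16 and WT (Carm1 and Prmt3 uc009hbs.1), beside 18.1% of all sites, and 6 of 13 did between DIDO3ΔCT+HADIDO3 and WT, beside 24.4%. The median log2 fold change of the 8 most abundant sites was 0.07, -0.31 and 0.31 in these comparisons, beside -0.01, -0.01 and 0.01 over all sites. In DIDO3ΔCT+HADIDO3, 4 of these 8 sites were lower than in WT at that threshold (Prmt2, Prmt3, Prmt5 and Prmt9) and 1 was higher (Prmt1). The first and second comparisons share the WT libraries, so their values are only set side by side.

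**Figure D3:**
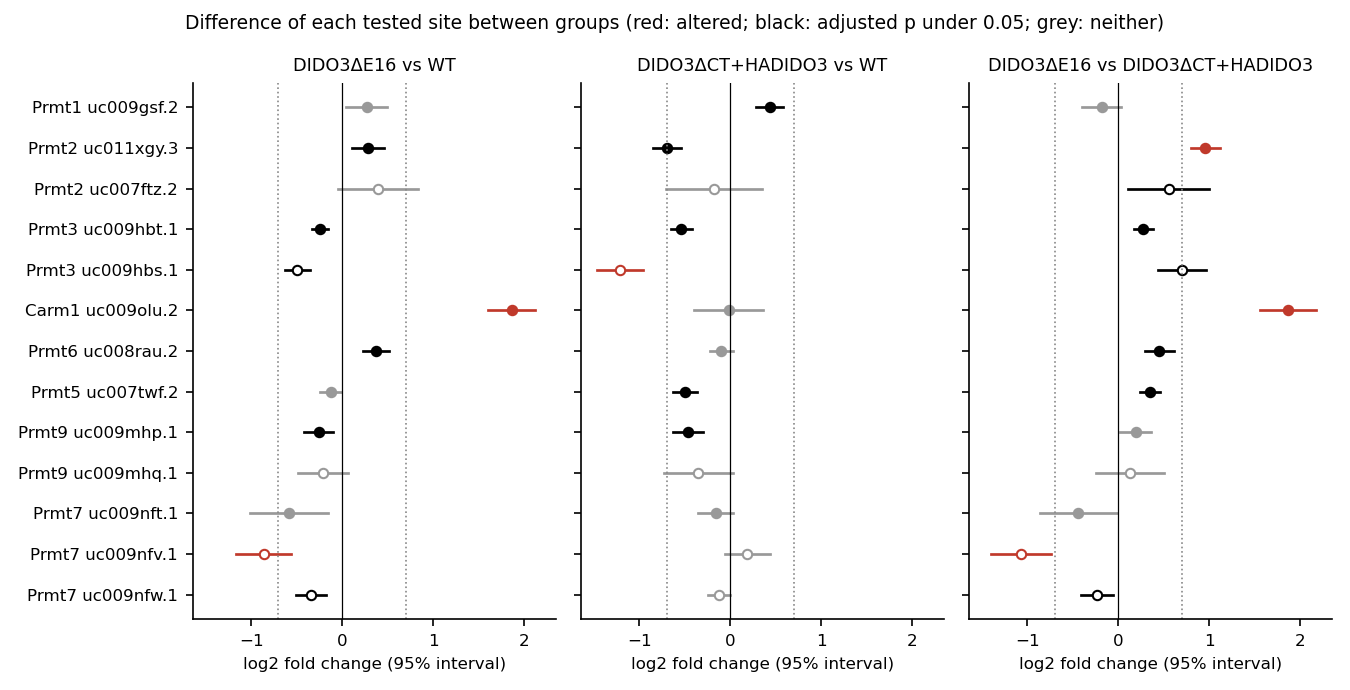
Log2 fold change with its 95% interval (horizontal axis, the same scale in each panel) of the 13 tested sites in the 3 comparisons, with filled points for the most abundant site of each gene and dotted lines at 0.7 in both directions. Red marks altered sites, of which Carm1 is farthest from 0 against both WT and DIDO3ΔCT+HADIDO3.

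Among the type I genes, Carm1, which encodes a coactivator-associated enzyme that methylates histone H3 and splicing and transcription factors, showed the largest difference of the 13 sites. Its site was at 43.9, 54.8 and 52.6 TPM in WT, 189, 201 and 184 TPM in DIDO3ΔE16, and 44.5, 61.6 and 54.9 TPM in DIDO3ΔCT+HADIDO3. All DIDO3ΔE16 libraries lay above all others, and WT and DIDO3ΔCT+HADIDO3 overlapped. The log2 fold change was 1.86 against WT (95% interval 1.60 to 2.12, adjusted p = 0.000383), a 3.64-fold difference, and 1.74 with the flow cell name as a covariate (adjusted p = 0.00524). Each DIDO3ΔE16 library had 3.36 to 3.68 times the TPM of WT 2-3, the only WT library of the same flow cell name. Of the Carm1 site, 39.0% is 3′UTR and the rest is added downstream sequence. Its TPM is therefore not a measure of Carm1 mRNA alone, and signal in the 3′UTR was not separated from signal in the added bases.

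Against DIDO3ΔCT+HADIDO3 the Carm1 log2 fold change was 1.86 as well (1.56 to 2.17, adjusted p = 0.000208). Between DIDO3ΔCT+HADIDO3 and WT it was -0.02 with an interval from -0.40 to 0.36 (adjusted p = 0.937), so a difference of up to about these bounds was not detectable with these libraries.

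The Carm1 site shares 1458 bases with a site of Yipf2 on the other strand (uc009olx.2, 21586682 to 21589646), a gene for a Golgi membrane protein, and the Yipf2 site in turn spans 2498 bases of Carm1 exons. The Yipf2 site stood at 589, 505 and 498 TPM in WT, 141, 129 and 42.0 TPM in DIDO3ΔE16, and 504, 468 and 410 TPM in DIDO3ΔCT+HADIDO3. It was lower in all DIDO3ΔE16 libraries than in any other library (log2 fold change -2.60 against WT, -3.94 to -1.25, adjusted p = 0.0188), but with the flow cell name as a covariate the adjusted p was 0.127.

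Because reads were not divided by strand, aligned bases of the 2 sites were also summed, as bases per 1000000 bases in all features. On this scale Carm1 held 42.6, 53.2 and 51.3 in the WT libraries, 184, 195 and 179 in those of DIDO3ΔE16, and 43.5, 60.2 and 53.3 in those of DIDO3ΔCT+HADIDO3. Both sites together held 560, 497 and 491 in the WT libraries, 307, 308 and 215 in those of DIDO3ΔE16, and 488, 474 and 413 in those of DIDO3ΔCT+HADIDO3. The sum was thus lower in DIDO3ΔE16 while Carm1 alone was higher, with no overlap between DIDO3ΔE16 and WT in either (exact permutation test over libraries, two-sided, p = 0.1 for each, the smallest that 3 against 3 allows).

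Carm1 took 68.7 ± 12.5% of the bases of the pair in DIDO3ΔE16, compared with 9.58 ± 1.71% in WT and 11.5 ± 2.25% in DIDO3ΔCT+HADIDO3 (SD, n = 3). How StringTie divided reads over the shared bases is not given in the sources used here, and how much of the Carm1 difference comes from this division was not tested.

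**Figure D4:**
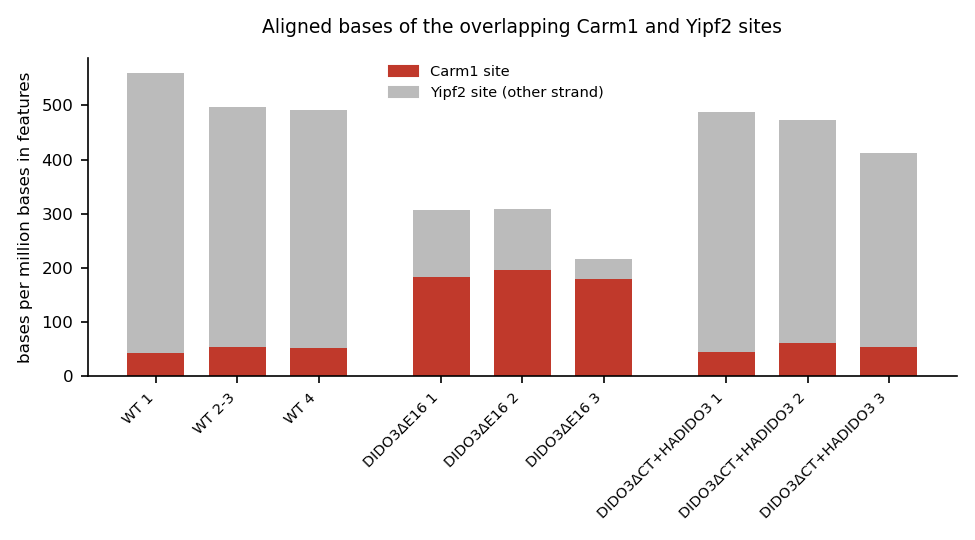
Stacked bars give, for each library, the aligned bases of the Carm1 site (red) and of the Yipf2 site on the other strand (grey) per 1000000 bases in all features. In the DIDO3ΔE16 libraries the red part is 179 to 195 and the whole bar 215 to 308, against 42.6 to 53.2 and 491 to 560 in WT.

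By the likeness of their levels over the 9 libraries, the 3 sites most like Carm1 among 7232 sites with a mean of at least 10 TPM and no base shared with another site were those of Coil, Cux2 and Atp2a2. Their Pearson r with Carm1 on the log2 scale was 0.991, 0.990 and 0.989, and all points share their libraries and depth. Coil, the gene of the Cajal body protein coilin, stood at 79.1 to 80.8 TPM in WT, 131 to 134 TPM in DIDO3ΔE16 and 81.2 to 91.1 TPM in DIDO3ΔCT+HADIDO3. Cux2, a homeobox gene, stood at 3.96 to 4.59, 23.3 to 28.2 and 3.94 to 5.17 TPM in the same order.

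Prmt1 encodes the main type I enzyme, with histone H4 and RGG-rich RNA-binding proteins among its substrates. Its site was at 17.9, 16.9 and 15.8 TPM in WT, 18.9, 21.7 and 23.3 TPM in DIDO3ΔE16, and 24.8, 24.6 and 24.0 TPM in DIDO3ΔCT+HADIDO3. Both mutant groups lay above WT with no overlap. The log2 fold change was 0.43 in DIDO3ΔCT+HADIDO3 (0.29 to 0.58, adjusted p = 0.00405, and 0.0390 with the flow cell name) and 0.27 in DIDO3ΔE16 (0.05 to 0.50, adjusted p = 0.0716), which did not reach the threshold, and neither passed the fold limit. The lines themselves did not differ at that threshold (-0.18, -0.40 to 0.03, adjusted p = 0.133). GENCODE places 97 bases of an exon of Cpt1c inside this site on the same strand, and reads of the pair are not separated in this window.

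Prmt2, which encodes a weakly active type I enzyme that binds nuclear receptors, separated the mutant lines in opposite directions from WT at its most abundant site. This site, uc011xgy.3, stood at 24.1, 25.1 and 22.1 TPM in WT, 28.6, 29.5 and 32.6 TPM in DIDO3ΔE16, and 15.7, 15.9 and 15.6 TPM in DIDO3ΔCT+HADIDO3. The 3 groups did not overlap. The direct difference between the lines was 0.96 on the log2 scale (0.80 to 1.11, adjusted p = 0.000208), a 1.94-fold difference.

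Against WT, the Prmt2 difference was 0.28 in DIDO3ΔE16 (adjusted p = 0.0316) and -0.69 in DIDO3ΔCT+HADIDO3 (-0.85 to -0.54, adjusted p = 0.00105), the latter just short of the fold limit. With the flow cell name as a covariate these values were 0.20 (adjusted p = 0.230) and -0.77 (adjusted p = 0.00738), and the second then counted as altered. The last Prmt2 site (uc007ftz.2, 76205226 to 76207760), which shares 423 bases with the first, held 1.04 to 1.98 TPM over all libraries. Its difference between the lines was 0.55 (0.11 to 0.99, adjusted p = 0.0484). Against WT, this last site differed by 0.39 in DIDO3ΔE16 (limma, adjusted p = 0.152) and -0.18 in DIDO3ΔCT+HADIDO3 (adjusted p = 0.543).

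Prmt3 encodes a cytosolic type I enzyme that methylates the ribosomal protein RPS2. Its last site (uc009hbt.1, 49857477 to 49860265 on chromosome 7) was at 129, 125 and 130 TPM in WT, 110, 114 and 115 TPM in DIDO3ΔE16, and 97.2, 94.1 and 92.6 TPM in DIDO3ΔCT+HADIDO3. The levels descended from WT to DIDO3ΔE16 to DIDO3ΔCT+HADIDO3 with no overlap between groups. The log2 fold change was -0.24 in DIDO3ΔE16 (adjusted p = 0.00463, and 0.0511 with the flow cell name) and -0.54 in DIDO3ΔCT+HADIDO3 (adjusted p = 0.001, and 0.0145 with the flow cell name), and the lines differed by 0.27 (adjusted p = 0.00366), all short of the fold limit. An exon of Gm26856, a non-coding gene on the other strand, covers 124 bases of this site.

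An internal Prmt3 site (uc009hbs.1, 49782074 to 49786615), 73650 bases before the end of the last one, showed the same order with wider steps. It stood at 35.0, 32.9 and 33.0 TPM in WT, 24.8, 26.4 and 23.8 TPM in DIDO3ΔE16, and 16.9, 13.5 and 16.5 TPM in DIDO3ΔCT+HADIDO3. It fell in DIDO3ΔCT+HADIDO3 (log2 fold change -1.21, -1.46 to -0.96, adjusted p = 0.000862), to 0.432 of the WT level, and it was lower by a smaller step in DIDO3ΔE16 (-0.49, adjusted p = 0.00261). These values were -1.18 (adjusted p = 0.0129) and -0.46 (adjusted p = 0.0325) with the flow cell name as a covariate. The difference between the lines, 0.6976, lay just short of the fold limit (adjusted p = 0.00364).

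As a share of the gene's TPM, the internal Prmt3 site took 14.2 ± 1.39% in DIDO3ΔCT+HADIDO3, compared with 18.1 ± 0.867% in DIDO3ΔE16 and 20.8 ± 0.581% in WT (SD, n = 3). No library of one group overlapped another, and the exact permutation p was 0.1 for each pair of groups, the smallest it can give.

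Prmt6 encodes a nuclear type I enzyme that methylates the amino-terminal tail of histone H3. Its site (uc008rau.2, 110246525 to 110249834 on chromosome 3) was at 42.1, 42.8 and 43.3 TPM in WT, 53.5, 58.8 and 61.4 TPM in DIDO3ΔE16, and 44.2, 42.5 and 42.0 TPM in DIDO3ΔCT+HADIDO3. As for Carm1, DIDO3ΔE16 lay above all other libraries while WT and DIDO3ΔCT+HADIDO3 overlapped, but the difference was 1.29-fold. Its log2 fold change was 0.37 against WT (0.23 to 0.52, adjusted p = 0.0069) and 0.45 against DIDO3ΔCT+HADIDO3 (0.29 to 0.61, adjusted p = 0.00281). With the flow cell name as a covariate, the former was 0.37 with an adjusted p of 0.0619. The site lies clear of any site or exon on the other strand, and 1331 of its added bases are exon of longer Prmt6 transcripts.

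Among the type II genes, Prmt5, which encodes the main enzyme of symmetric dimethylation, had the highest single site of the 8 genes in every library but was not altered. Summed over all sites of a gene, Prmt7 stood above it in WT 2-3, WT 4 and all DIDO3ΔCT+HADIDO3 libraries. Its site (uc007twf.2, 54505182 to 54507794 on chromosome 14) was at 233, 224 and 243 TPM in WT, 226, 217 and 227 TPM in DIDO3ΔE16, and 178, 183 and 173 TPM in DIDO3ΔCT+HADIDO3. The DIDO3ΔCT+HADIDO3 libraries lay below all others. The log2 fold change was -0.49 against WT in DIDO3ΔCT+HADIDO3 (-0.63 to -0.36, adjusted p = 0.00183, and 0.0221 with the flow cell name), -0.13 in DIDO3ΔE16 (adjusted p = 0.0883) and 0.35 between the lines (0.24 to 0.45, adjusted p = 0.00184). The site holds no exon of another gene. It is 3 features with the same coordinates, over which WT 2-3 and DIDO3ΔE16 2 split their TPM while the other libraries placed nearly all of it in uc057bfc.1. Taken alone, that feature gave a log2 fold change of -0.16 between the lines (adjusted p = 0.828).

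Prmt9, whose product methylates the splicing factor SF3B2, had the lowest mean in WT among the most abundant sites of the 8 members. Its internal site (uc009mhp.1, 77561006 to 77565978 on chromosome 8) was at 15.8, 14.5 and 14.3 TPM in WT, 12.3, 13.5 and 13.3 TPM in DIDO3ΔE16, and 11.0, 12.1 and 11.6 TPM in DIDO3ΔCT+HADIDO3. Each group lay below the one before it with no overlap. Between the lines, the difference of 0.19 missed the threshold (limma, adjusted p = 0.0671). The log2 fold change was -0.26 in DIDO3ΔE16 (adjusted p = 0.0318, and 0.199 with the flow cell name) and -0.46 in DIDO3ΔCT+HADIDO3 (adjusted p = 0.00433, and 0.0435 with the flow cell name). Its last site (uc009mhq.1, 77581250 to 77583338) held 2.73 to 4.05 TPM, with no adjusted p under 0.125 in any comparison, and the split of TPM between both sites stayed within the spread of replicates (19.1 to 23.7% at the last site over all libraries).

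Prmt7 is the type III gene, with 3 tested sites on chromosome 8. The most abundant is internal (uc009nft.1, 106235111 to 106237393), at 140, 156 and 157 TPM in WT, 80.8, 118 and 121 TPM in DIDO3ΔE16, and 148, 148 and 138 TPM in DIDO3ΔCT+HADIDO3. DIDO3ΔE16 lay below the other groups, with 1 library far under the other two, and the difference from WT missed the threshold (-0.58, -1.02 to -0.15, adjusted p = 0.0518, and 0.193 with the flow cell name). The DIDO3ΔE16 library at 80.8 TPM was also the one with the fewest aligned bases, 1.46 Gb.

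The next Prmt7 site downstream (uc009nfv.1, 106237421 to 106240058) was small and was the one altered. It stood at 8.52, 8.35 and 9.14 TPM in WT, 4.99, 5.56 and 4.35 TPM in DIDO3ΔE16, and 11.7, 10.2 and 10.1 TPM in DIDO3ΔCT+HADIDO3. The groups did not overlap, with DIDO3ΔE16 below and DIDO3ΔCT+HADIDO3 above WT. It fell in DIDO3ΔE16 against WT (-0.86, -1.16 to -0.56, adjusted p = 0.005) and was lower than in DIDO3ΔCT+HADIDO3 (-1.07, -1.40 to -0.74, adjusted p = 0.00169). With the flow cell name as a covariate, the first was -0.81 with an adjusted p of 0.0524. The difference between DIDO3ΔCT+HADIDO3 and WT was 0.19 (adjusted p = 0.198).

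The third Prmt7 site (uc009nfw.1, 106242364 to 106245185) was at 78.7, 81.9 and 78.5 TPM in WT, 68.3, 68.9 and 60.6 TPM in DIDO3ΔE16, and 80.9, 77.3 and 77.4 TPM in DIDO3ΔCT+HADIDO3. It was lower in DIDO3ΔE16 than in WT (-0.34, adjusted p = 0.0149, and 0.0723 with the flow cell name) and than in DIDO3ΔCT+HADIDO3 (-0.24, adjusted p = 0.0378), both under the fold limit. Thus all 3 tested Prmt7 sites had their lowest libraries in DIDO3ΔE16. As a share of the gene's TPM, uc009nfv.1 took 2.82 ± 0.456% in DIDO3ΔE16, compared with 3.63 ± 0.203% in WT and 4.55 ± 0.266% in DIDO3ΔCT+HADIDO3 (SD, n = 3), with no overlap between any of the groups (exact permutation p = 0.1 for each pair).

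**Figure D5:**
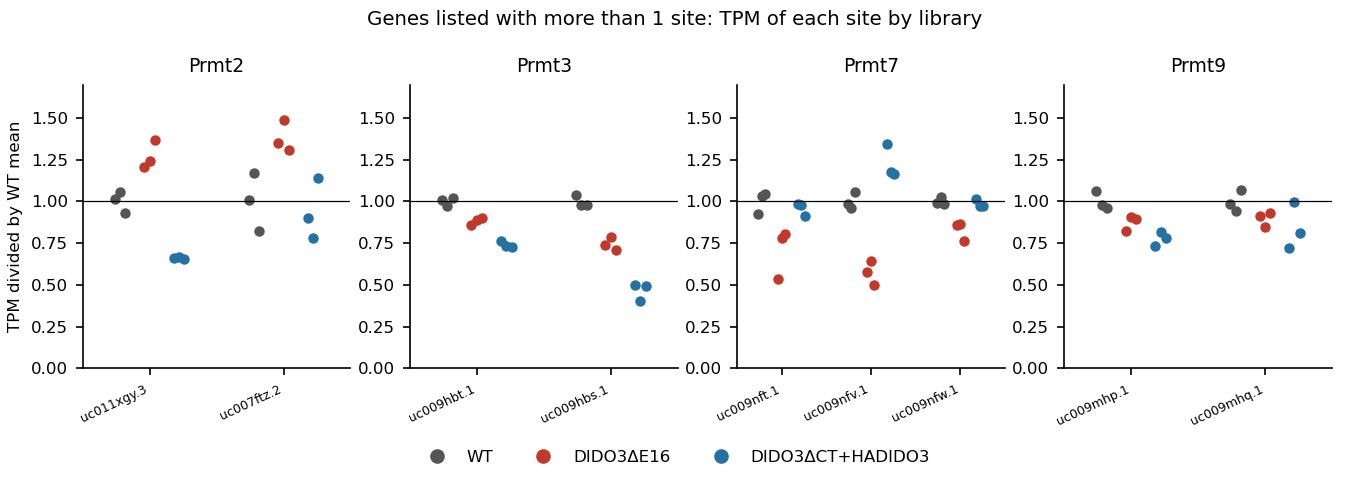
TPM of each tested site divided by its WT mean (vertical axis, from 0) for the genes with more than 1 site, 1 point for each library. Both Prmt3 sites descend from WT to DIDO3ΔE16 to DIDO3ΔCT+HADIDO3, with the internal site uc009hbs.1 lower, and Prmt7 uc009nfv.1 lies on opposite sides of WT in the mutant lines.

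The enzymes work with partners, cofactor supply and substrates, for which 43 further genes were listed and 40 could be tested by their most abundant site. Of these, 3 were altered in DIDO3ΔE16 against WT, 4 in DIDO3ΔCT+HADIDO3 against WT and 4 between the lines, or 7.5%, 10% and 10%, below the 15.1%, 17.3% and 27.4% of all sites. Their median log2 fold change was -0.07, -0.09 and 0.10, close to that of all sites in each comparison. An adjusted p under 0.05 at any fold (limma) was reached by 15, 22 and 24 of the 40 genes. Of all sites, 33.2%, 38.4% and 49.2% reached it, and whether the listed genes differ in this share was not tested. Ddah2 and Mat1a were listed at 0 in at least 1 library and Crebbp was not analysed here.

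The PRMT5 partners (Wdr77, Clns1a, Riok1 and Coprs) held no altered gene in any comparison (limma), with 1 to 2 of the 4 at an unadjusted p under 0.05. With the flow cell name as a covariate, Riok1 counted as altered in DIDO3ΔE16 against WT (3.76, adjusted p = 0.000914), but its WT libraries stood at 30.6, 2.80 and 26.1 TPM, a 10.9-fold spread. Wdr77, the obligate partner of PRMT5, stood at 580 to 596 TPM in WT, 554 to 586 TPM in DIDO3ΔE16 and 490 to 517 TPM in DIDO3ΔCT+HADIDO3, where it was lower than in WT as Prmt5 was (log2 fold change -0.33, adjusted p = 0.00326). The remaining family member tested, Prmt8, which encodes a membrane-bound type I enzyme known from brain, was at 8.20, 9.07 and 10.3 TPM in WT, 13.7, 16.1 and 17.5 TPM in DIDO3ΔE16, and 15.3, 14.4 and 16.5 TPM in DIDO3ΔCT+HADIDO3. It rose in DIDO3ΔE16 (0.71, adjusted p = 0.0137, and 0.0912 with the flow cell name) and was higher without reaching the fold limit in DIDO3ΔCT+HADIDO3 (0.64, adjusted p = 0.00926, and 0.0654 with the flow cell name).

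Of Btg1 and Btg2, antiproliferative proteins that bind PRMT1, Btg1 was altered between the lines. It stood at 47.7 to 52.2 TPM in WT, 34.9 to 35.5 TPM in DIDO3ΔE16 and 58.9 to 66.1 TPM in DIDO3ΔCT+HADIDO3 (difference between the lines -0.82, adjusted p = 0.000137). No gene of the 4 Tudor domain readers (Smn1, Smndc1, Snd1 and Tdrd3), whose products bind methylarginine, was altered (limma), with 1 to 2 of the 4 at an unadjusted p under 0.05 in each comparison.

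Among 7 genes for demethylation, deimination and breakdown of free methylarginine, Padi2, a peptidylarginine deiminase, rose in both lines. It was at 19.2 to 22.6 TPM in WT, 46.8 to 51.6 TPM in DIDO3ΔE16 (1.22, adjusted p = 0.000781) and 56.5 to 60.5 TPM in DIDO3ΔCT+HADIDO3 (1.42, adjusted p = 0.000327). Jmjd6, an oxygenase with a reported arginine demethylase activity, stood at 98.5 to 107 TPM in WT, 79.7 to 83.9 TPM in DIDO3ΔE16 and 132 to 139 TPM in DIDO3ΔCT+HADIDO3, a difference of -0.71 between the lines (adjusted p = 8.5e-05).

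Of the 5 genes for S-adenosylmethionine, both enzymes that clear its by-products fell in DIDO3ΔCT+HADIDO3. Ahcy, which hydrolyses S-adenosylhomocysteine, stood at 379 to 410 TPM in WT and 234 to 254 TPM in DIDO3ΔCT+HADIDO3 (-0.78, adjusted p = 0.000434), and Mtap, which recycles methylthioadenosine, at 178 to 182 and 114 to 123 TPM (-0.73, adjusted p = 0.000186). In DIDO3ΔE16 their log2 fold changes against WT were -0.12 (adjusted p = 0.236) and -0.01 (adjusted p = 0.849). The remaining tested genes of this list, Mat2a and Mat2b, which encode the subunits of the synthesizing enzyme, differed by 115-fold and 41.7-fold between libraries of 1 group, so little can be read from them or from the list's median of 0.37 in DIDO3ΔCT+HADIDO3.

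Of 14 substrate genes, Rps2, Taf15 and Ncl were altered in at least 1 comparison. The most abundant site of Rps2, whose product is the substrate of PRMT3, was lower in DIDO3ΔE16 than in WT (-2.29, adjusted p = 0.00563) and than in DIDO3ΔCT+HADIDO3 (-2.93, adjusted p = 6.2e-05). It nests with another Rps2 site, and both together held 200 to 216 TPM in WT, 101 to 118 TPM in DIDO3ΔE16 and 265 to 295 TPM in DIDO3ΔCT+HADIDO3, so a smaller step in the same direction was left in the sum. In DIDO3ΔCT+HADIDO3 against WT the site was not altered (0.62, adjusted p = 0.168). With the flow cell name as a covariate the value was 1.25 and the site counted as altered. That value is set against WT 2-3, where this site held 107.5 TPM and the other 92.67 TPM. In WT 1 and WT 4 the other site held 0.003 and 0.005 TPM. Ncl, the gene of nucleolin, stood at 167 to 186 TPM in WT, 230 to 245 TPM in DIDO3ΔE16 and 125 to 133 TPM in DIDO3ΔCT+HADIDO3 (0.91 between the lines, adjusted p = 0.000101). Taf15 fell in DIDO3ΔCT+HADIDO3 (-0.71, adjusted p = 0.00338). None of the 5 tested CARM1 substrates and partners (Pabpc1, Ncoa3, Smarcc1, Med12 and Ep300) was altered (limma), with 1 to 2 of them at an unadjusted p under 0.05 in each comparison. Smarcc1 and Med12 differed by 11.1-fold and 16.8-fold between libraries of 1 group, so little can be read from these sites, and Med12 counted as altered in DIDO3ΔE16 against WT with the flow cell name as a covariate (3.86, adjusted p = 0.0462).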

How the data were processed

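The authors aligned reads to mm10 with BWA-MEM 0.7.15 and, per the file headers and the submitters' processing notes, quantified UCSC 3′UTRs, each lengthened by 2000 bases downstream, with StringTie 1.3.3 without assembling new transcripts. The deposited TPM matrices were used as given. No column of the matrices was left unmapped. FPKM and the fold changes of the study were not used, and the deposited coverage was used only for aligned bases, as coverage signal times feature length. Features were named from GENCODE vM21 (42367 of 43031), by stop codon or exon overlap.

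TPM was summed over features with identical coordinates, scaled by a mean of log2 ratios trimmed by 30% at each end, and tested as log2(TPM + 0.1) with limma 3.58.1 in R 4.3.3 (moderated, two-sided, with trend and robust options, Benjamini-Hochberg adjustment), on sites above 0 in every library compared. Fold changes on this scale understate the change of low sites. Overlap of TPM between libraries was judged before this scaling. The study's methods name a test that needs read counts, so limma took its place with the study's fold limit of 0.7 and threshold of 0.05. Shares and summed bases were tested by exact permutation over libraries (scipy 1.17.1). The procedure was tested on simulated data with 200 changed sites. P-values measure the spread between these libraries, which may be technical.

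Named were all 8 members with every site, sites overlapping them, listed genes altered in any comparison, and the 3 sites most like Carm1; Wdr77 was added after its values were seen. The members and lists were chosen with earlier results of these data known. Alternatives covered pseudocount, filter, scaling, feature unit, thresholds, moderation, flow cell name, replicate block and leaving out each library.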

Additional observations from a re-analysis of the deposited data

Results flagged for a closer look

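Each result here was picked out because the effects of the mutant lines differed in the direct test between them (limma, adjusted over all 21172 tested sites, n = 3 in each group). Among the methyltransferase sites, the effect in DIDO3ΔE16 minus that in DIDO3ΔCT+HADIDO3 was 1.86 on the log2 scale at Carm1, 0.96 at Prmt2 uc011xgy.3 and -1.07 at Prmt7 uc009nfv.1. Of these, the Prmt2 and Prmt7 sites stood on opposite sides of WT in the lines, and the Carm1 site stood above the others in DIDO3ΔE16 alone. One side was small in both: 0.28 for Prmt2 in DIDO3ΔE16 (limma, adjusted p = 0.0316) and 0.19 for Prmt7 in DIDO3ΔCT+HADIDO3 (adjusted p = 0.198). The latter was thus not told apart from WT. The overlap of the Carm1 site with Yipf2 and of the Prmt2 site with another Prmt2 site was not resolved by strand or by read.

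Among the related genes, the same difference was -0.82 for Btg1, -0.71 for Jmjd6, 0.91 for Ncl and -2.93 for Rps2. The Rps2 value is of its most abundant site, which nests with another Rps2 site. Both together held 101 to 118 TPM in DIDO3ΔE16 and 265 to 295 TPM in DIDO3ΔCT+HADIDO3, a smaller step. The libraries of the mutant lines did not overlap for any of these genes, which adds no support, since the same libraries were used to pick the genes.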

How the results depend on the processing

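Carm1 remained altered between DIDO3ΔE16 and WT under 19 of 20 alternatives (log2 fold change 1.74 to 1.96, the exception being the replicate block, 1.94 with an adjusted p of 0.0736) and between the lines under all 19 (1.74 to 1.96), and Prmt2 uc011xgy.3 between the lines under all 19 (0.90 to 0.99). Between DIDO3ΔCT+HADIDO3 and WT, the Carm1 value near 0 changed sign: it was 0.084 without scaling, 0.055 with quantile normalization, 0.016 with the replicate block and -0.12 to 0.10 when 1 library was left out, and that of Prmt6 was 0.0049 without scaling. The Prmt5 value between the lines was -0.16 with single features. None of these values was altered, and the cause of the changes was not tested.

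The number of member genes with an altered site was 2, 1 and 3 in the 3 comparisons (DIDO3ΔE16 vs WT, DIDO3ΔCT+HADIDO3 vs WT, between the lines). With the flow cell name as a covariate it was 1 (Carm1) and 2 (Prmt2 and Prmt3) against WT. With TPM summed over a gene it was 1 (Carm1) and 0 against WT (limma, 8 and 5 of the 8 genes at an unadjusted p under 0.05), and with a 1.5-fold limit it was 2 (Prmt2 and Prmt3) in DIDO3ΔCT+HADIDO3. Left out singly, the libraries gave 2 in DIDO3ΔE16 vs WT, 3 to 4 between the lines and 1 to 2 in DIDO3ΔCT+HADIDO3 vs WT, with Prmt2 added without WT 4 or without DIDO3ΔCT+HADIDO3 1 or 2 (-0.74, -0.70 and -0.70). On sites that share no base with another, an alternative chosen after seeing the data, 1 gene (Prmt7) was left in DIDO3ΔE16 vs WT and 1 (Prmt7) between the lines, since the sites of Carm1 and Prmt2 share bases. At an adjusted p under 0.01, 2111 of all sites were altered in DIDO3ΔE16 vs WT, against 3191. Of the sites altered there, 67.4% were higher, and 55.0% with quantile normalization.

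The labels give no shared origin for equal replicate numbers, and the data show no pairing: deviations from the group means correlated by 0.012 to 0.019 between same-numbered libraries of the mutant lines. With the replicate block, limma called 0 sites and 0 member genes against WT, while 6198 (DIDO3ΔE16) and 6915 (DIDO3ΔCT+HADIDO3) sites, 7 and 6 of the 13 member sites among them, had an unadjusted p under 0.05. There, WT and a mutant line share only the numbers 1 and 2. The block left 5183 altered sites between the lines, against 5791, with the same 3 member genes. Depth limits the sites of a few TPM most, such as Prmt7 uc009nfv.1, Prmt2 uc007ftz.2 and Prmt9 uc009mhq.1.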
